A study of Homo sapiens with 2 samples.

Results

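Cells import amino acids, make some of them, and spend them by charging transfer RNAs. Importers of the solute carrier (SLC) families move amino acids across membranes, aminoacyl-tRNA synthetases attach each amino acid to its tRNA, and enzymes such as PHGDH, PSAT1 and PSPH build serine from a glycolytic intermediate. The transcription factor ATF4 links these processes: when amino acids run short or proteins misfold in the endoplasmic reticulum, kinases phosphorylate the initiation factor eIF2, translation of ATF4 mRNA increases, and ATF4 raises transcription of many transporters, synthetases and synthesis enzymes. ATF4 activity is therefore set largely at translation, which mRNA levels do not show.

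These genes were examined in PC9, a long-established line from a human lung adenocarcinoma, which carries an activating EGFR deletion. One RNA-sequencing library came from PC9 cells expressing TAZ4SA, an active mutant of the Hippo pathway co-activator TAZ (gene WWTR1), and 1 library came from PC9 control cells. Per the labels, the cells carried lentiviral Tet-On vectors, and doxycycline at 50 ng/mL was given for 24 h to switch on TAZ4SA. The protocol is worded alike for both samples, so it is not known if control cells also had doxycycline, or which vector they carried, and whether the lines are clones or pools is not stated. Both were grown in RPMI with 10% serum, 1 mM pyruvate, 10 mM HEPES and 0.2% glucose. Members were chosen by symbol: genes of the SLC1A, SLC3A, SLC6A, SLC7A, SLC36A, SLC38A and SLC43A families, symbols made of 1 letter followed by ARS, and 11 named genes around ATF4. The rule matched 63 of the 16642 genes in the deposited table: 33 transporters, 17 cytosolic tRNA synthetases, 6 enzymes of serine, one-carbon and asparagine synthesis (PHGDH, PSAT1, PSPH, SHMT2, MTHFD2 and ASNS), and ATF4 with 4 stress regulators (DDIT3, DDIT4, TRIB3 and CHAC1). It also matched SLC7A6OS, which is not a transporter, and the pseudogene SLC7A5P1.

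The TAZ4SA library held 29668388 reads and the control 47684754. Levels are the authors' normalized counts, that is, reads divided by a size factor per library. A fold is their ratio, TAZ4SA over control, and a log2 ratio is that of the normalized counts plus 1. The bracketed range after a fold or log2 ratio is a 95% Clopper-Pearson interval that covers counting error only. With 1 library per group the conditions could not be tested: no p-value is given, and the spread between cultures is unknown. WWTR1 stood at 15628 normalized counts in TAZ4SA cells and 4933 in control cells, and ANKRD1, a known TAZ target, at 6443 and 678. All 5 epithelial markers were abundant, with means of at least 14614. Of 3 lung adenocarcinoma markers looked for, SFTPB and NAPSA had means of 51.4 and 7.05, and NKX2-1 was not in the deposited table. Of 15 markers of leukocytes, fibroblasts and endothelial cells, 3 had a mean of at least 20: ITGAM (32.7), COL1A1 (452) and CDH5 (1475.5). The endothelial marker CDH5 thus lay above the median of 1133 over all measured genes.

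The largest differences lay among the transporters, while the synthetases and the synthesis enzymes were nearly level between the libraries. A gene was called higher or lower where its normalized count averaged at least 20 over both libraries, its fold reached 1.5 and its interval excluded a ratio of 1. By this rule 2 of the 59 members with such a mean were higher in the TAZ4SA library (3.39%), against 4.19% of all 14074 genes, and 9 were lower (15.3%), against 4.47% of all genes. All 11 were transporters, which makes 2 higher and 9 lower of 29 transporters measured. The members were chosen with earlier results of these data known, so the shares set against all genes are a description only. At 2-fold, 1 member was higher (SLC7A7), against 1.93% of all genes, and 3 were lower (SLC6A14, SLC7A8 and SLC6A2), against 1.61%. With a threshold of 25% above the lower library in place of 1.5-fold, 6 members were higher, against 8.13% of all genes, and 13 were lower, against 9.94%. None of the 17 synthetases, 6 synthesis enzymes and 5 regulators reached 1.5-fold with such an interval. Of the genes with a mean of at least 2500, a level that 25 of these 28 reached, 1.77% were called higher and 2.07% lower, so a count of 0 is near the background. The 4 transporters below the minimum mean are SLC3A1, SLC7A2, SLC38A4 and SLC38A5. SLC6A14, 1 of the 9, reached the minimum mean through the control library alone.

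**Figure D1:**
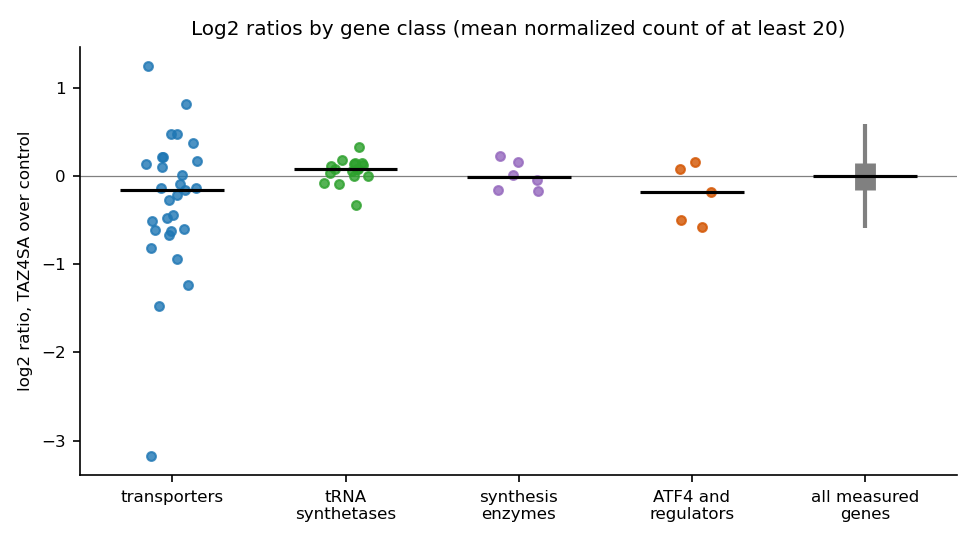
Log2 ratio of normalized counts plus 1, TAZ4SA over control, for each member whose normalized counts averaged at least 20 (points, black bar the median) by class, beside all 14074 such genes (thick bar the 25th to 75th percentile, thin bar the 5th to 95th, black bar the median). The transporters span -3.17 to 1.24, while the 17 synthetases span -0.33 to 0.33.

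The median log2 ratio was -0.16 for the transporters, 0.07 for the synthetases, -0.02 for the synthesis enzymes and -0.19 for ATF4 and the regulators, against 0.00019 for all measured genes. The last class holds 5 genes, and its median was -0.058 without DDIT4. The interquartile range of the log2 ratios was 0.78 among transporters, 0.14 among synthetases and 0.31 over all measured genes. For the transporters the median and the sum differed in sign: summed normalized counts were 170330 in TAZ4SA cells and 159480 in control cells, 1.07-fold higher, because the sum rests on a few abundant genes. Levels differ between the classes as well, with a median of the members' means of 1764 among transporters and 9970 among synthetases, so genes of like level are a closer comparison for the synthetases and are given with them.

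Transporters that pair with SLC3A2 went in opposite directions. SLC3A2 encodes the heavy chain that carries several SLC7 light chains to the plasma membrane. It stood at 10986 normalized counts in TAZ4SA cells and 7904 in control cells, 1.39-fold higher (1.35 to 1.43). SLC7A5 encodes LAT1, its light chain for leucine and other large neutral amino acids, and has been described as a gene that YAP and TAZ can raise. Its level was 34113 in TAZ4SA cells and 19464 in control cells, 1.75-fold higher (1.72 to 1.79), which made it the most abundant transporter per length in the TAZ4SA library and the next after SLC1A5 in the control. SLC7A6, a light chain that exchanges cationic for neutral amino acids, stood at 5529 and 3991, 1.39-fold higher (1.33 to 1.45) and under the 1.5-fold threshold. SLC7A7, a light chain of the same kind, was much scarcer at 267 in TAZ4SA cells and 112 in control cells, 2.37-fold higher (1.88 to 3.003) on 184 and 125 reads. These 4 genes were thus all higher in the TAZ4SA library, SLC7A5 and SLC7A7 past the threshold.

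In bulk RNA, fewer cells that make a transcript and less transcript per cell cannot be told apart, and this holds for the lower light chains. SLC7A11 encodes xCT, the light chain that exports glutamate to import cystine for glutathione synthesis; it is known as a target of both ATF4 and NRF2. It stood at 5416 normalized counts in TAZ4SA cells and 10415 in control cells, 1.92-fold lower (1.85 to 1.996). SLC7A8, encoding the LAT2 light chain, was scarce at 26.1 and 74.7 (18 and 83 reads) and 2.86-fold lower (1.70 to 5.06). Per kilobase of annotated exon, SLC7A5 made up 84.2% of the 5 light chains in TAZ4SA cells and 71.4% in control cells, while SLC7A11 made up 6.58% and 18.8%. The ratio of SLC7A5 to SLC7A11 per kilobase was 12.8 in TAZ4SA cells and 3.80 in control cells. The ratio of SLC7A11 to the heavy chain SLC3A2 per kilobase was 0.265 and 0.707.

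**Figure D2:**
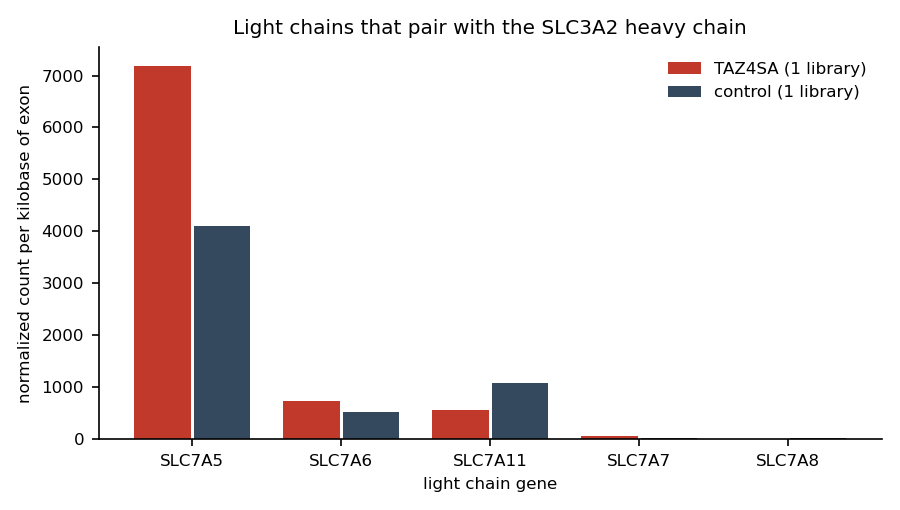
Normalized count per kilobase of annotated exon (linear axis from 0) of the 5 light chain genes that pair with SLC3A2, in the TAZ4SA library and the control. SLC7A5 stands at 7189 in TAZ4SA and 4102 in the control, and SLC7A11 at 562 and 1080.

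Promoters of 3 of these 4 higher genes are shown. The search covered 300-base windows from 250 bases before to 50 after the first RefSeq start listed for each gene (GRCh38.p14), on both strands, for the TEAD core GGAATG, the antioxidant response core TGACNNNGC bound by NRF2, the AP-1 site TGACTCA, which can overlap it, and the C/EBP-ATF core TGATGNAA bound by ATF4. A match is a description of letters, not a shown binding site. Windows were at hand for 46 of the 63 members, and not for SLC7A11. The comparison is with every window of the promoter set, not only with those of genes in the deposited table. The TEAD core occurred in 14.0% of all 35116 windows and in 3 of 27 transporter windows (SLC38A5, SLC38A6 and SLC6A17), the antioxidant core in 13.4% of all windows and 5 of 27, and the AP-1 site in 4.95% and 5 of 27. Bases are given 5′ to 3′ on the strand of the gene, with matches in capitals. The whole 250 bases before the start of SLC7A5 (chr16:87869508-87869757, minus strand) hold none of the 4 motifs; 1 antioxidant core lies across its start. In SLC3A2 (chr11:62881619-62881688, plus strand) 1 stretch that begins 37 bases before the start matches both the antioxidant core and the AP-1 site. In SLC7A7 (chr14:22819842-22819911, minus strand) an antioxidant core begins 88 bases before the start. SLC7A6, not shown, has 2 antioxidant cores in its window.
SLC7A5: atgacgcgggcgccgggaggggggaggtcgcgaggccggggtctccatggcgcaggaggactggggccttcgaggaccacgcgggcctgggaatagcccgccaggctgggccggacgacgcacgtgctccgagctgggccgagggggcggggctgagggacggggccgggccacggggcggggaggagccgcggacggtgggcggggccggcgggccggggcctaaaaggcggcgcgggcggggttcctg
SLC3A2: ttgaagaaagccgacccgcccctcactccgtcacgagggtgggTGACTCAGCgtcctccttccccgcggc
SLC7A7: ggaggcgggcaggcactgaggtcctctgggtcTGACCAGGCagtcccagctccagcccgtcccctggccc

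The 3 sodium-driven glutamate carriers of the plasma membrane in the table were all called lower in TAZ4SA cells, against 4.47% of all genes. SLC1A6 stood at 2913 normalized counts in TAZ4SA cells and 4626 in control cells, 1.59-fold lower (1.51 to 1.67). SLC1A3 stood at 2794 and 4322, 1.55-fold lower (1.47 to 1.63). SLC1A1 stood at 811 and 1243, 1.53-fold lower (1.39 to 1.69). Their summed level was 6517 in TAZ4SA cells and 10192 in control cells, 1.56-fold lower. The remaining SLC1 genes carry neutral amino acids, and both differed by under 25%. SLC1A5, the main glutamine carrier ASCT2, stood at 18076 and 16436, 1.10-fold higher (1.08 to 1.13), and SLC1A4 at 294 and 325, with an interval that included a ratio of 1.

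In the SLC6 family, which holds carriers of neurotransmitters, amino acids and their derivatives, 4 of 6 measured members were called lower, against 4.47% of all genes. SLC6A14, among the 4, passed the minimum mean through the control library alone. SLC6A17, a vesicular carrier of neutral amino acids, stood at 2315 normalized counts in TAZ4SA cells and 4085 in control cells, 1.76-fold lower (1.67 to 1.87). SLC6A9, the glycine carrier GLYT1, stood at 1001 and 1521, 1.52-fold lower (1.39 to 1.66). SLC6A6, the taurine carrier, was the most abundant of the family per length at 7718 and 10793, 1.40-fold lower (1.35 to 1.44). The noradrenaline carrier SLC6A2 rested on 17 and 66 reads and was 2.41-fold lower (1.40 to 4.38). SLC6A14, a carrier of neutral and cationic amino acids, had 6 and 96 reads and was 9.92-fold lower (4.40 to 27.7). The creatine carrier SLC6A8 was the exception at 1864 and 1664, 1.12-fold higher (1.04 to 1.20).

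The abundant importers of glutamine and of cationic amino acids were close between the libraries. SLC38A1, a sodium-coupled carrier of glutamine and other neutral amino acids, stood at 28944 normalized counts in TAZ4SA cells and 28791 in control cells, a fold of 1.01 (0.988 to 1.02). SLC38A2, a related carrier that ATF4 can raise, stood at 21420 and 18508, 1.16-fold higher (1.13 to 1.18). SLC7A1, the arginine and lysine carrier CAT1, stood at 12461 and 11605, 1.07-fold higher (1.04 to 1.10). Of the other SLC38 genes measured, SLC38A6 was 1.36-fold lower (1.18 to 1.56), SLC38A7 1.21-fold lower and SLC38A10 1.17-fold lower, while the interval of SLC38A9, a lysosomal arginine sensor for mTORC1, included a ratio of 1. SLC36A1, a proton-coupled carrier that exports small amino acids from lysosomes, stood at 1079 and 834, 1.29-fold higher (1.17 to 1.43), and its paralog SLC36A4 was 1.12-fold lower. In the SLC43 family, SLC43A3, which carries purine bases, was the most abundant at 5361 and 4639 and 1.16-fold higher (1.11 to 1.21). The intervals of the family's amino acid carriers SLC43A1 and SLC43A2 included a ratio of 1.

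**Figure D3:**
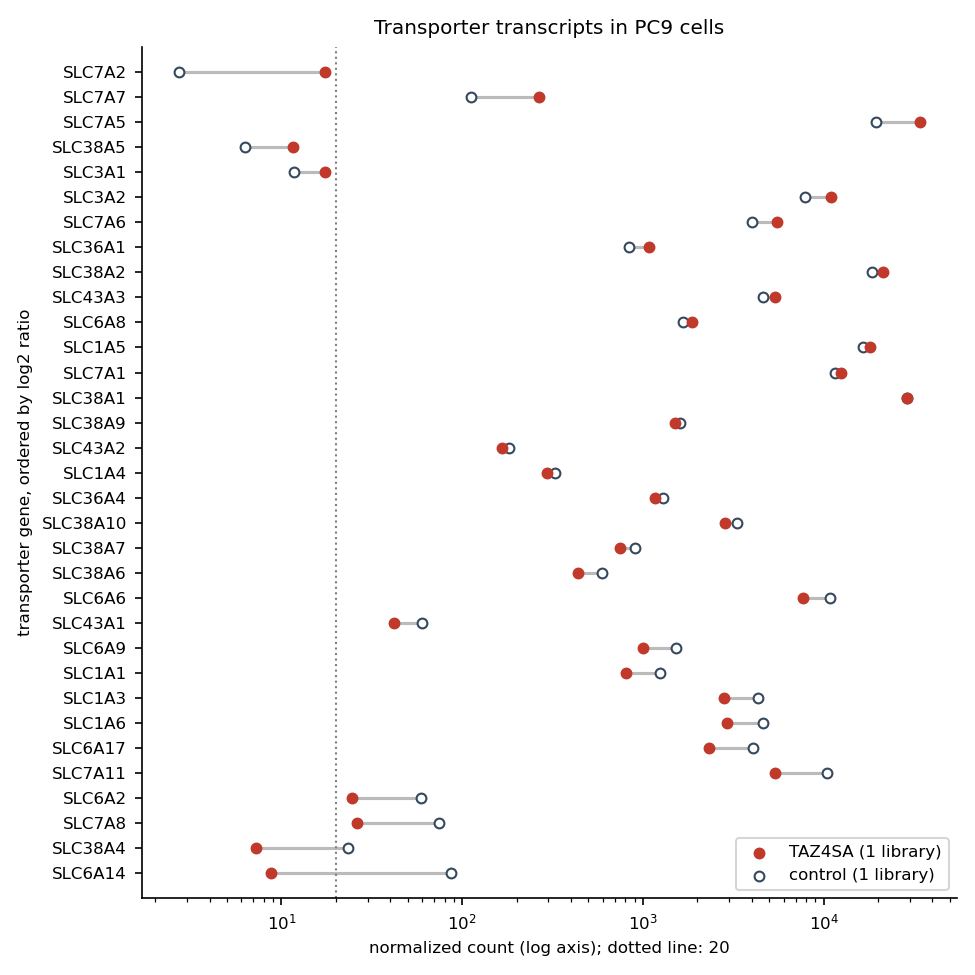
Normalized counts (log axis) of the 33 transporter genes in the TAZ4SA library (filled) and the control (open), ordered by log2 ratio, with a dotted line at 20. SLC7A5 and SLC3A2 lie to the right of their control values by 1.75-fold and 1.39-fold, SLC7A11 and the glutamate carriers SLC1A1, SLC1A3 and SLC1A6 to the left, and the pair of points for SLC38A1 coincides.

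Of the 4 transporters under the minimum mean, 2 had intervals that excluded a ratio of 1, each on few reads. SLC7A2, a cationic amino acid carrier, had 12 and 3 reads, a ratio of 6.45 (1.74 to 35.6), and SLC38A4 had 5 and 26 reads, 3.23-fold lower (1.22 to 10.8). SLC3A1 had 12 and 13 reads and SLC38A5 had 8 and 7. The pseudogene SLC7A5P1 had 43 and 46 reads, with an interval that included a ratio of 1, and can share reads with SLC7A5. SLC7A6OS stood at 976 and 1055, also with an interval that included 1. In GENCODE 29 it lies opposite SLC7A6 and overlaps 44.4% of the exon length of that gene. No label states whether counting used strand, so the reads of that pair cannot be told apart; exons of 16 members overlap those of another gene in the table.

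The cytosolic tRNA synthetases were nearly level. For 15 of the 17 (88.2%) the higher library exceeded the lower by under 25%, against 75.5% of all measured genes and 88.0% of the 4351 genes with a mean of at least 2500, a level that all the synthetases reached. Their intervals lay above a ratio of 1 for 10 and below it for 3 (QARS, DARS and LARS). Intervals lay above 1 for 24.5% of all measured genes and below it for 25.2%. Of the 4351 genes of like level, the intervals of 1593 lay above and those of 1462 below. SARS, which charges serine tRNAs, stood at 12332 normalized counts in TAZ4SA cells and 9803 in control cells, 1.26-fold higher (1.22 to 1.29). QARS, which charges glutamine tRNAs, stood at 4459 and 5592, 1.254-fold lower (1.20 to 1.31). TARS, which charges threonine tRNAs, was the most abundant synthetase per length, at 28772 and 25342 and 1.14-fold higher (1.11 to 1.16). The synthetases therefore span a narrower range than the transporters. Of them, 12 lay above and 5 below a log2 ratio of 0, against 2279 and 2072 of the 4351 genes of like level. The 17 mitochondrial synthetases, which are separate genes, all differed by under 25%, from FARS2 at -0.27 to MARS2 at 0.24 on the log2 ratio. The cytosolic synthetases not named by the rule, with the scaffold subunits of the multisynthetase complex, were 7 genes, all under 25%; FARSA was highest at a log2 ratio of 0.22.

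The 6 synthesis enzymes all differed by under 25%. PHGDH, the first enzyme of serine synthesis, stood at 8184 normalized counts in TAZ4SA cells and 9130 in control cells, 1.12-fold lower (1.08 to 1.15). PSAT1, the transaminase of that branch, stood at 5171 and 5830, 1.13-fold lower (1.08 to 1.17). PSPH, the phosphatase, stood at 6736 and 6934, and SHMT2, which splits serine to glycine in mitochondria, at 7060 and 7018, both with intervals that included a ratio of 1. MTHFD2, the next mitochondrial folate enzyme, stood at 8559 and 7691, 1.11-fold higher (1.08 to 1.15). ASNS, asparagine synthetase, was the scarcest of the 6 per length, at 1620 and 1387 and 1.17-fold higher (1.08 to 1.26).

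ATF4 and the 4 regulators of the rule gave no call at 1.5-fold. ATF4 mRNA stood at 9810 normalized counts in TAZ4SA cells and 9328 in control cells, 1.05-fold higher (1.02 to 1.08). DDIT3, encoding the pro-apoptotic factor CHOP, stood at 254 and 229, with an interval that included a ratio of 1 (0.911 to 1.35); 27.2% of its exon length lies opposite MARS, which had many more reads. TRIB3, a pseudokinase that restrains ATF4, stood at 5529 and 6302, 1.14-fold lower (1.10 to 1.19). CHAC1, which degrades glutathione, had 40 and 92 reads, with an interval from 0.471 to 1.03. DDIT4, an inhibitor of mTORC1 that stress and hypoxia raise, stood at 6038 and 9001, 1.49-fold lower (1.44 to 1.55), which is just under the threshold.

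**Figure D4:**
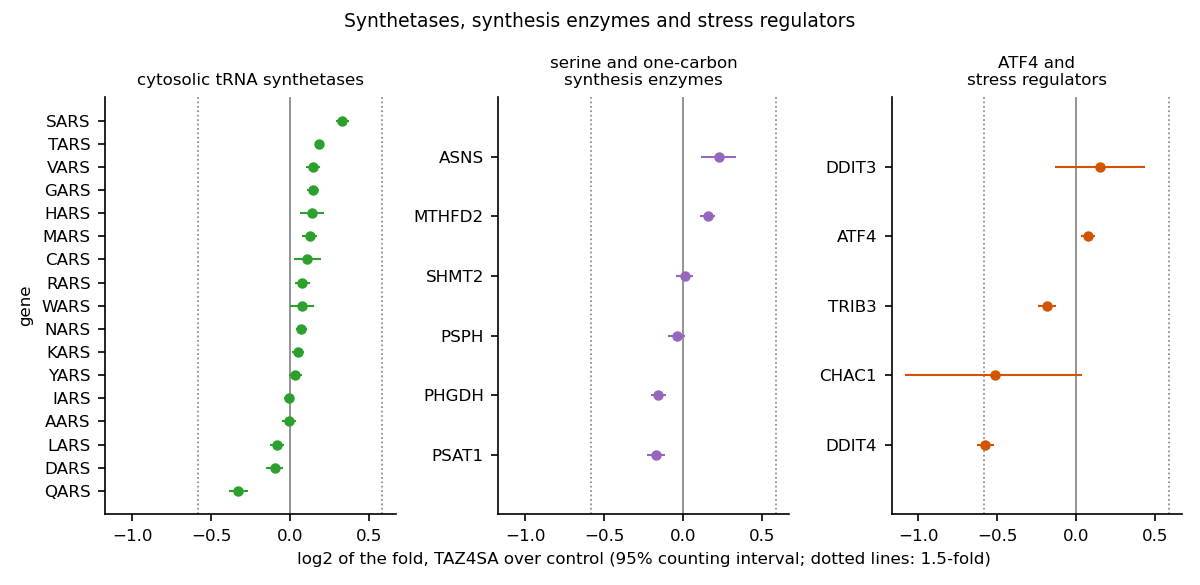
Log2 of the fold, TAZ4SA over control, with 95% counting intervals for the 17 cytosolic synthetases, 6 synthesis enzymes and 5 regulators (dotted lines at 1.5-fold in each direction). All points lie inside the dotted lines, with DDIT4 next to the lower one; the interval of CHAC1, on 40 and 92 reads, is the widest.

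The C/EBP-ATF core was most frequent in the synthetase windows. It occurred in 3.62% of all 35116 windows, in 5 of 9 synthetase windows (AARS, CARS, IARS, NARS and TARS), in 1 of 4 synthesis enzymes (ASNS), in 1 of 5 regulators (CHAC1) and in 4 of 27 transporters (SLC1A3, SLC38A1, SLC3A2 and SLC7A1). The 5 synthetases with it had log2 ratios from -0.0049 to 0.18. Over all members with the core, log2 ratios ran from -0.63 (SLC1A3) to 0.48 (SLC3A2), and 4 of these genes are shown, each as 70 bases. In ASNS (chr7:97872439-97872508, minus strand) the core begins 68 bases before the start. In AARS (chr16:70289657-70289726, minus strand) it begins 187 bases before the start and in CHAC1 (chr15:40953231-40953300, plus strand) 209 bases before, both as the reverse complement. In SLC1A3 (chr5:36596338-36596407, plus strand), 1 of the lower glutamate carriers, it begins 220 bases before the start.
ASNS: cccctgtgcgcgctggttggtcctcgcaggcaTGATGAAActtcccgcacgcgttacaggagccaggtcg
AARS: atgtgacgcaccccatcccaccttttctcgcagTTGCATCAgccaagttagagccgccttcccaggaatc
CHAC1: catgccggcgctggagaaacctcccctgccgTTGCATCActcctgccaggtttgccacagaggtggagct
SLC1A3: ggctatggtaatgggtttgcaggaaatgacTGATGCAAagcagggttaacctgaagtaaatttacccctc

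Lists of related genes were read against the 4.19% of all genes called higher and the 4.47% called lower. Of 16 measured genes for the eIF2 kinases, eIF2, its exchange factor and its phosphatases, 1 was called higher and 0 lower. That gene was PPP1R15A, encoding GADD34, the inducible subunit that dephosphorylates eIF2, at 4111 normalized counts in TAZ4SA cells and 1966 in control cells, 2.09-fold higher (1.98 to 2.21). EIF2B1, an exchange factor subunit, was 1.28-fold lower (1.20 to 1.38) and EIF2B4, another subunit, 1.22-fold higher. Of 16 further ATF4 targets and partners measured, 1 was called higher and 2 lower, against the same 4.19% and 4.47%. ATF3, a transcription factor of the same family, stood at 628 and 141, GDF15, a stress cytokine, at 889 and 1824, and CEBPB, a partner of ATF4, at 5876 and 10037. GDF15 was 2.05-fold lower (1.87 to 2.25), CEBPB 1.71-fold lower (1.65 to 1.77) and HERPUD1 1.24-fold lower (1.12 to 1.37). SESN2, ATF5, CEBPG, STC2 and XPOT, chosen after their values were seen, had log2 ratios between 0.05 and 0.17. The rest of the list were VLDLR at 0.16, and VEGFA, CEBPD, JDP2, PCK2, CTH and KLHL24 between -0.25 and -0.06. Of the 16 genes, 7 lay above a log2 ratio of 0 and 9 below, with a median of -0.07.

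Among 16 genes of the unfolded protein response in its IRE1 and ATF6 arms, 0 were called in either direction, against 4.19% higher and 4.47% lower of all genes. HSPA5, the endoplasmic reticulum chaperone BiP, stood at 67772 normalized counts in TAZ4SA cells and 50363 in control cells, 1.35-fold higher (1.33 to 1.36), whereas EDEM1, of the degradation pathway, was 1.46-fold lower (1.38 to 1.55), the sensor ERN1 1.33-fold lower and the co-chaperone DNAJB9 1.29-fold lower. Among 28 other enzymes of amino acid and one-carbon metabolism, 1 was called higher and 24 differed by under 25% (75.5% of all measured genes did). The cytosolic SHMT1 stood at 2776 and 3848, 1.39-fold lower (1.31 to 1.46), in contrast to its mitochondrial counterpart SHMT2, and the mitochondrial glutamate carrier SLC25A22 was 1.27-fold higher (1.17 to 1.38). Among 25 genes of amino acid sensing and mTORC1, 0 were called, against 4.19% higher and 4.47% lower of all genes, and 23 differed by under 25%, against 75.5%; DEPTOR, an mTOR inhibitor, was 1.32-fold higher (1.04 to 1.67). Among 9 other amino acid transporters measured, 1 was called higher and 8 differed by under 25%, with the lysosomal carrier PQLC2 at 1.20-fold higher and the cystine exporter CTNS at 1.14-fold lower. The enzyme and the transporter called higher were AASS, at a log2 ratio of 2.77, and SLC16A10, at 1.39, both at low levels and named after their values were seen. AASS passed the minimum mean through the TAZ4SA library alone.

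**Figure D5:**
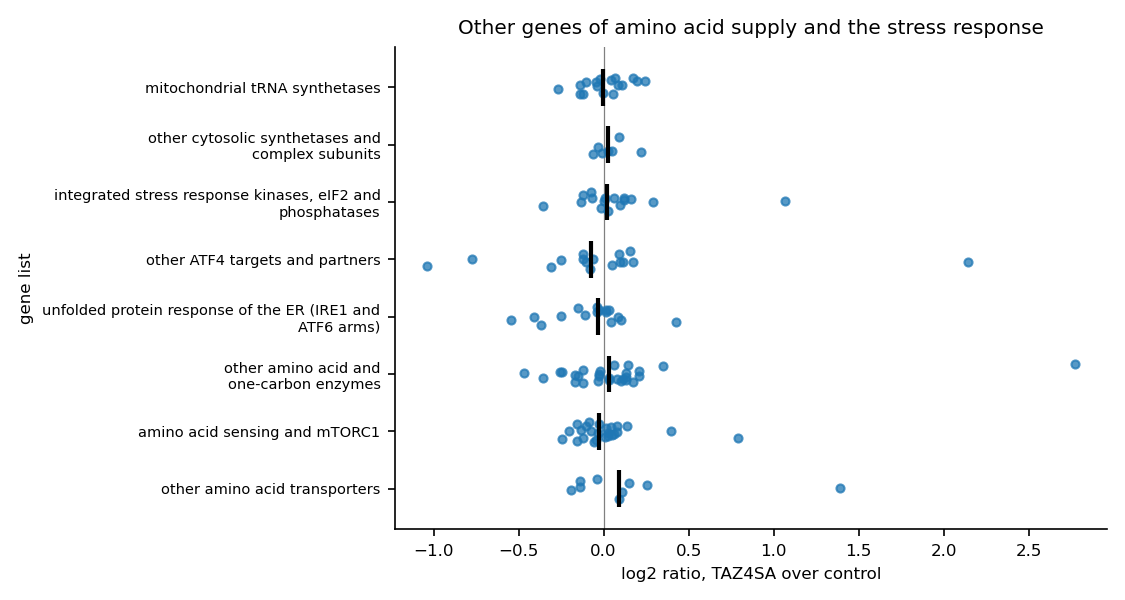
Log2 ratio, TAZ4SA over control, of each gene whose normalized counts averaged at least 20, in the 8 lists of related genes (points) with the list median (black bar). Medians lie between -0.07 and 0.09; the points farthest from 0 are AASS at 2.77, ATF3 at 2.14, SLC16A10 at 1.39, PPP1R15A at 1.06 and GDF15 at -1.04.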

How the data were processed

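Trim Galore, STAR, HTSeq and DESeq2 are listed with the GRCh37 build in the submitters' processing notes, without versions or settings. The deposited signal columns are normalized counts: 100% of values in both were whole multiples of 1 step per library within 0.01 reads, so the authors divided read counts by size factors of 0.689 (TAZ4SA) and 1.11 (control), and whole reads were recovered from them. The authors' deposited log2 fold change differed from the log2 of their ratio by at most 0.000136; the ratios reported here were computed from the columns. No count test was run, since each group has 1 library.

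The members and lists were chosen with earlier results of these data known. Values named in full are those of the 11 listed genes, of transporters and synthetases with a mean of at least 100 and a difference of at least 25%, the most abundant member per SLC family, 7 further transporters, and up to 4 genes per related list. Scaling, pseudocounts, minimum means, thresholds and thinned reads were varied. Exon lengths came from GENCODE 29 (GRCh38, not the build of the table; 62 of 63 members by Ensembl identifier) and promoters from RefSeq by identifier. The call rule was tested on simulated Poisson counts, which hold no spread between cultures, so that test covers counting error only. Tools were DESeq2 1.42.0 and edgeR 4.0.16 in R 4.3.3, which supplied alternative scaling factors, and scipy 1.17.1 in Python 3.11.15.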

Additional observations from a re-analysis of the deposited data

How the results depend on the processing

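The 4 other scalings (TMM, upper quartile, median of ratios, total reads) shifted the overall median log2 ratio by no more than 0.0043. All 210 alternative values of the 30 named members (scalings, pseudocounts of 0.5 and 5, control reads thinned to the depth of TAZ4SA) stayed within their counting intervals. For the scalings this was near certain beforehand, since their shifts were so small. It was also likely for the others: pseudocounts change genes of these levels little, and thinning adds only counting error, which the intervals cover. None of these settings bears on the spread between cultures. The number of members called depended on the threshold by construction: 6 higher with a threshold of 25%, and 1 higher and 3 lower at 2-fold, against 2 higher and 9 lower at 1.5-fold. With a minimum mean of 100 they were 2 and 6, and with no minimum 3 and 10. The median of ATF4 and the regulators, -0.19, was -0.058 without DDIT4 and also with a minimum mean of 100, which leaves out CHAC1. The transporter median of -0.16 became 0.10 for 9 transporters taken as ATF4 targets and -0.25 for the other 20. The 9 were SLC3A2, SLC7A5, SLC7A11, SLC1A4, SLC1A5, SLC38A2, SLC6A9, SLC7A1 and SLC43A1. They went in both directions, from -0.94 (SLC7A11) to 0.81 (SLC7A5), and the 0.10 is the value of SLC7A1 alone. The log2 ratio of summed transporter counts was 0.095, since abundant carriers such as SLC7A5 weigh most in a sum. Leaving out SLC6A14 gave a transporter median of -0.15. Without members whose exons overlap another gene of the table, the median was -0.16 for transporters and 0.07 for synthetases. It was -0.04 for synthesis enzymes and -0.19 for ATF4 and the regulators. Both choices were made after seeing the data. No paired analysis was possible because there is 1 library per condition. Depth limits the scarce carriers most, such as SLC7A2 with 12 and 3 reads.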

Other observations

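Outside the main members, and named after their values were seen, 2 genes of amino acid handling at low levels were called higher. SLC16A10, which carries aromatic amino acids, stood at 103 normalized counts in TAZ4SA cells and 38.7 in control cells (71 and 43 reads), 2.66-fold higher (1.80 to 3.98). AASS, the first enzyme of lysine breakdown, had 59 and 13 reads, 7.32-fold higher (3.97 to 14.5). It reached the minimum mean through the TAZ4SA library alone, so it had to differ.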
